A study of Homo sapiens with 12 samples.

Results

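The comparison described here set MyLa cells given romidepsin and afatinib together against MyLa cells given the DMSO vehicle, across every expressed gene. MyLa is an established human line of cutaneous T cell lymphoma (CTCL), a cancer of skin-homing T cells. Cells in all groups were kept in 20 ng/mL interleukin-2 (IL-2) and were collected after 24 h. The combination cells received 3.2 nM romidepsin and 5.7 uM afatinib dimaleate, and the DMSO cells received a matched volume of the solvent. The members were 3 combination libraries and 3 DMSO libraries, 6 of the 12 RNA-seq libraries in the series, chosen by their labels. The other 6 libraries, 3 with romidepsin alone and 3 with afatinib alone, entered the model and are given beside the combination where they differ from it. Of 59050 gene names in the count table, 16208 passed a filter on low counts and were tested. No label tells if replicate libraries were grown as separate cultures, and p-values therefore measure the spread between these libraries, which may be technical. The cells are a single line, and results hold for that line only.

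Romidepsin inhibits class I histone deacetylases, enzymes that remove acetyl groups from histones and other proteins, and it is used to treat CTCL. Histone acetylation loosens chromatin, and inhibitors of this class both raise and lower many transcripts. Afatinib binds covalently to a cysteine in the ERBB family of receptor tyrosine kinases, a cysteine that a few kinases outside the family, JAK3 among them, also carry. IL-2 signals through its receptor chains to JAK1 and JAK3 and on to STAT5, and this route feeds growth and survival in T cells.

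Libraries held 8972228 to 12696653 counts assigned to genes, and the 6 of this comparison held 10246436 to 12696653. Values below are CPM, each gene's counts relative to the library total scaled by TMM factors, with 3 counts, 0.229 to 0.344 CPM depending on the library, taken as the limit of detection; it covers counting error only. KRT5, a keratin of basal keratinocytes, gave 59 and 94 counts in DMSO libraries 1 and 2 and 43 in combination library 1, against 0 or 1 in the other 3. With afatinib library 3 (126 counts) these are the 4 libraries with keratin reads named below. Counts of mitochondrially encoded genes made up 14.8% of DMSO library 3 against 11.2% to 12.8% of the other 5. Of 13 T cell markers, CD3E, CD5, CD7 and CD28 had at most 5 counts in each of the 6 libraries, while CD2, CD3D, CD3G, CD247, TRAC, TRBC2, BCL11B and IL2RA were expressed. Markers of other cell types, some of them expressed, are described with their lists further on. In these bulk samples, fewer cells with a transcript and less of it per cell cannot be told apart, nor can a change in total RNA per cell be seen.

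Both drugs together altered most of the measured transcriptome. Listed genes of the integrated stress response, the sterol pathway, lysosomes and autophagy were mostly higher than in DMSO, and listed genes of DNA replication, mitosis, ribosome assembly, splicing and the T cell receptor complex were mostly lower. At an adjusted p below 0.05, 6026 genes (37.2% of those tested) were higher with the combination and 6010 (37.1%) were lower, so that 12036 (74.3%) were called in either direction. Counts of list members further on are to be read beside these shares. Among the called genes, 3424 (21.1% of those tested) had an estimated rise of at least 2-fold and 2974 (18.3%) a fall of at least 2-fold. These 2-fold sets below rest on the estimate. A test against a 2-fold change itself called 2406 genes higher and 2107 lower. The 3 combination libraries lay all above or all below the 3 DMSO libraries for 12116 genes (74.8%). The median log2 fold change over all tested genes was -0.01 and the median absolute log2 fold change was 0.79. The same median absolute value was 0.55 for romidepsin alone and 0.34 for afatinib alone, each against the same DMSO libraries.

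At 8-fold or more, 601 genes were higher and 171 lower, and at 64-fold or more the numbers were 63 and 4. This balance differed with level. Of 1706 tested genes below 1 CPM on average over the 6 libraries, 557 were at least 2-fold higher and 247 at least 2-fold lower, while of 2097 genes over 100 CPM 245 were higher and 453 lower by that much. A gene of low average level passes the filter through the group where it is high. Genes called at least 2-fold higher took 5.93%, 6.04% and 5.95% of the counts of the DMSO libraries and 21.0%, 20.9% and 21.2% of those of the combination libraries. Genes called at least 2-fold lower took 24.1%, 24.1% and 23.3% of the DMSO counts and 8.67%, 8.43% and 8.57% of the combination counts. These sets were chosen from the same values, so the shares describe how much of the library moved and test nothing.

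**Figure D1:**
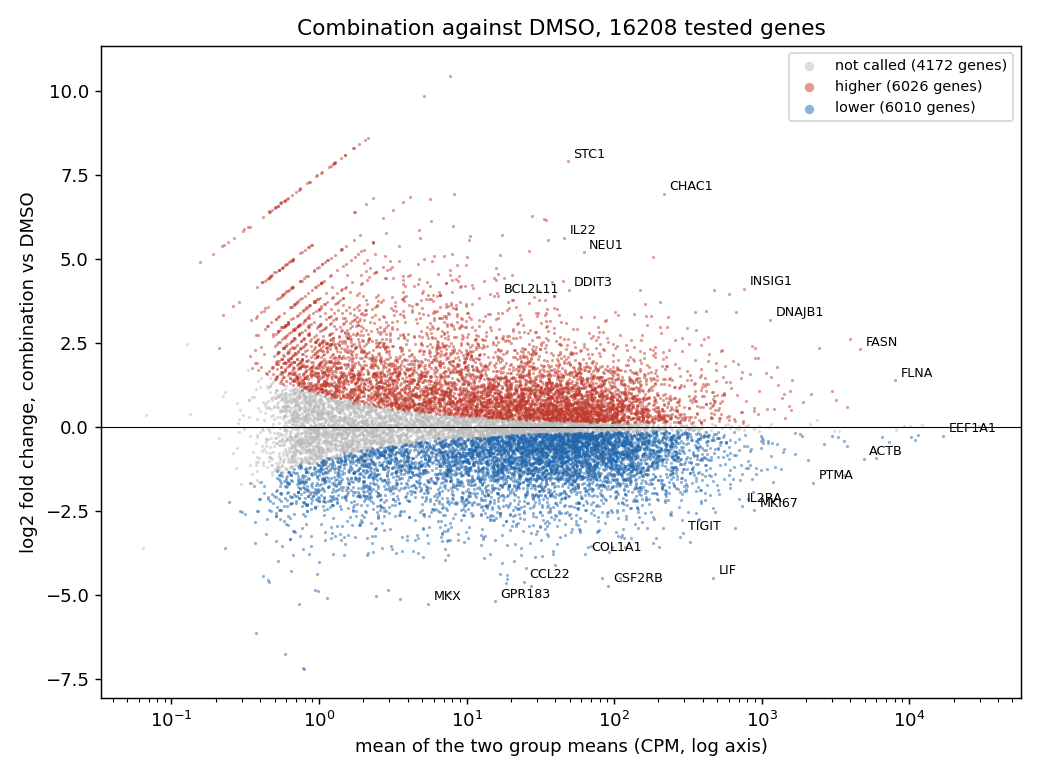
Each point is 1 of 16208 tested genes, with the mean of its DMSO and combination group means (CPM, log axis) against its log2 fold change, coloured by its call at an adjusted p below 0.05. Higher and lower genes are near equal in number (6026 and 6010), rises reach further from 0 than falls, and the diagonal lines at the upper left are genes with 0 or a few counts in DMSO, whose fitted fold depends on the prior count.

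**Figure D2:**
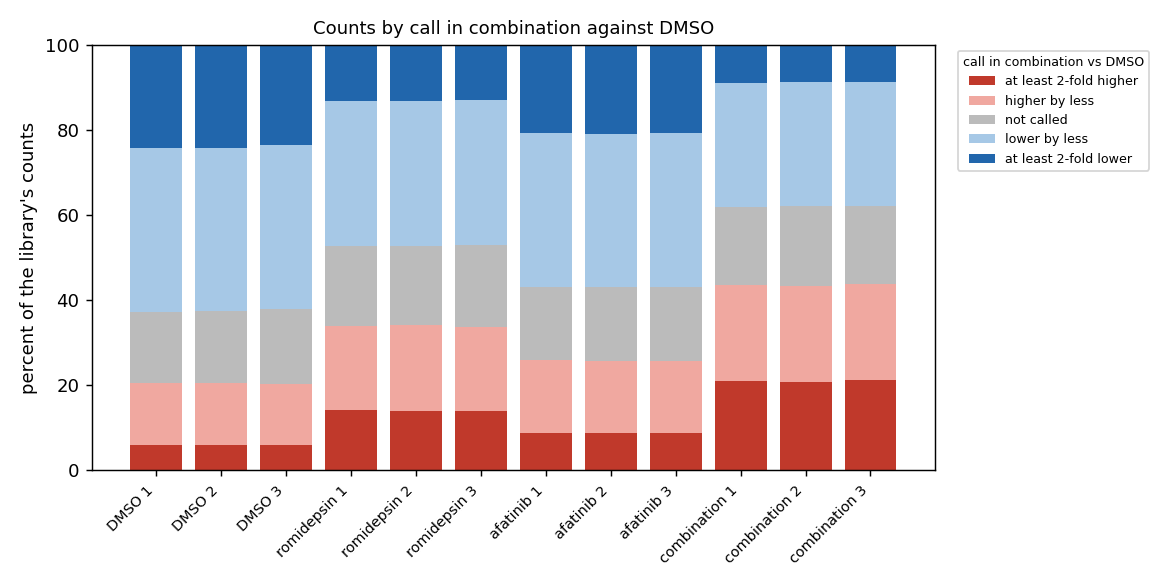
Stacked bars give the percent of each library's counts (vertical axis, 12 libraries) from tested genes by their call in combination against DMSO. The share of genes at least 2-fold higher runs from 5.93% to 6.04% in DMSO and from 20.9% to 21.2% in the combination libraries, with both single-drug groups between.

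Genes of the response to amino acid shortage and endoplasmic reticulum stress were mostly higher than in DMSO, and CHAC1 rose furthest among them. In this response, stress kinases phosphorylate eIF2alpha, and the factor ATF4 is translated and acts on genes for amino acid uptake, amino acid synthesis and, through DDIT3, cell death. CHAC1, an enzyme that degrades glutathione, was at 3, 4.75 and 2.89 CPM in the DMSO libraries and 447, 398 and 452 CPM in the combination libraries. Each combination library was far above each DMSO library, and the log2 fold change was 6.95 (SE 0.1) with an edgeR adjusted p of 2.38e-44. With romidepsin alone CHAC1 was at 9.28, 8.59 and 9.79 CPM and with afatinib alone at 82, 90.9 and 80.9 CPM, both below the combination (log2 difference 5.54 from romidepsin, edgeR adjusted p = 3.9e-42, and 2.35 from afatinib, edgeR adjusted p = 1.23e-32). DDIT3, the death-linked transcription factor CHOP, went from 4.5, 5.96 and 5.96 CPM to 94.3, 91.1 and 94.2 CPM, a log2 fold change of 4.1 (SE 0.11) with an edgeR adjusted p of 2.51e-34. Its level with romidepsin alone, 4.64, 5.84 and 4.49 CPM, overlapped DMSO, and with afatinib alone it was 46.4, 51.1 and 47.9 CPM. ASNS, which makes asparagine, rose from 2.25, 2.02 and 3.07 CPM to 25.6, 23.4 and 24.1 CPM (log2 fold change 3.3, SE 0.17, adjusted p by edgeR 7.11e-23). SESN2, a stress-induced brake on mTORC1, stood at 35.3 ± 5.24 CPM with the combination and 32.8 ± 2.61 CPM (mean ± SD, n = 3) with afatinib alone, a difference that did not pass the test (log2 0.1, edgeR adjusted p = 0.417).

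Of 34 genes listed for this response, 29 were tested, and 22 were higher, 4 lower and 3 not called, with a median log2 fold change of 1.40 against -0.01 for all genes. The list's median was -0.11 with romidepsin alone and 1.86 with afatinib alone, above that of the combination. Tested directly, 8 of the 29 were higher with the combination than with afatinib alone and 18 were lower, so CHAC1 and DDIT3, which exceeded both single drugs, do not stand for the whole list. Among the other members that rose were ATF3 (log2 fold change 2.99), the phosphatase subunit PPP1R15A (2.89), CTH of cysteine synthesis (2.84), the cystine transporter SLC7A11 (2.41) and its partner SLC3A2 (1.96). The 4 that fell were SHMT2 (-1.5), the arginine transporter SLC7A1 (-1.33), PCK2 (-0.63) and CEBPG (-0.52). ATF4 itself rose by 0.53 on the log2 scale. TRIB3, another usual target, gave a log2 fold change of 0.16 that did not pass the test. Cytosolic aminoacyl-tRNA synthetases, often counted as ATF4 targets, were split, with 5 of 20 higher and 12 lower, VARS furthest at -1.59.

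The promoters of CHAC1 and ASNS are shown because both genes rose and because their windows hold the letters of the element that C/EBP and ATF proteins bind. Each window runs from 250 bases before to 50 after the gene's start, as listed by RefSeq on GRCh38.p14, and the capitals mark TGATGNAAN on either strand. CHAC1 lies on chromosome 15 (window chr15:40953221-40953520, plus strand), and the match begins 210 bases before the start. ASNS lies on chromosome 7 (window chr7:97872359-97872658, minus strand), and the match begins 68 bases before the start.
CHAC1: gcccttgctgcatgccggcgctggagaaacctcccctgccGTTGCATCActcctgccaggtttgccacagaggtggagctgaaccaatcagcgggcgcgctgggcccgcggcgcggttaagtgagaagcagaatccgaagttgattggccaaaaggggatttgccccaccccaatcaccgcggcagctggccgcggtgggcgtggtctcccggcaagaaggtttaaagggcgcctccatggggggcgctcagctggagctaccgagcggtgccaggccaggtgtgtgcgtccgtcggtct
ASNS: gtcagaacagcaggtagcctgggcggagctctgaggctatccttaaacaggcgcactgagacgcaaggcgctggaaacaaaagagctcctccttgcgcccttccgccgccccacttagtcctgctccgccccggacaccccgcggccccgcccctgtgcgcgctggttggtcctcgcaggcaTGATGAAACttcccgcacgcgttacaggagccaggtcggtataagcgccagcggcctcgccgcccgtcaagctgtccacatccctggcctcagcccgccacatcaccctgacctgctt
The motif was found in 5 of the 23 list members with a promoter in the table (21.7%), which are ATF3, CHAC1, ASNS, SLC3A2 and SLC7A1, and in 1.69% of the 10003 tested genes with one. It was found in 2% of genes at least 2-fold higher and 2.07% of those at least 2-fold lower. SLC7A1, 1 of the 5 with a match, fell. The cyclic AMP response element TGACGTCA, also searched, was found in 1 of the 23 (4.35%) and in 3.17% of all tested genes.

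Genes of the endoplasmic reticulum folding machinery also moved, 14 of 24 higher and 7 lower. HERPUD1, a part of the degradation route for misfolded proteins, went from 36.9, 36.6 and 36.4 CPM to 310.1, 299 and 291 CPM (log2 fold change 3.03, SE 0.07, adjusted p by edgeR 9.94e-38), with no overlap between the groups. It stood at 64.7 ± 2.41 CPM with romidepsin and 60.1 ± 0.466 CPM with afatinib (mean ± SD, n = 3 each). ERN1, the stress sensor IRE1, was at 44.6, 40.1 and 45 CPM in DMSO and 265, 267 and 258 CPM with the combination. The chaperones HSPA5 (0.74), HSP90B1 (0.93) and CALR (1.08) rose on the log2 scale, while the disulfide isomerase PDIA6 (-0.9), CANX (-0.53) and XBP1 (-0.28) fell. In the cytosol, DNAJB1, a partner of HSP70, went from 228, 243 and 209 CPM to 2136, 2043 and 2033 CPM, a log2 fold change of 3.19 (SE 0.06) (edgeR adjusted p = 2.15e-40). Of 18 tested genes of that chaperone list 5 were higher and 9 lower. HSP90AA1 (0.8), DNAJB4 (1.17), BAG3 (0.65) and HSPH1 (0.38) were the other 4 that rose, and HSF1, the heat shock factor, fell furthest (-0.89).

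Antioxidant genes formed a related group. NRF2, encoded by NFE2L2, is a factor freed from KEAP1 by oxidants and electrophiles and acts on genes for glutathione and NADPH supply. Of 22 tested members, 14 were higher and 6 lower (median log2 fold change 0.86). The list's median was 0.07 with romidepsin alone and 0.72 with afatinib alone. Tested directly, 5 of the 22 were higher with the combination than with afatinib alone and 13 were lower. Against romidepsin alone 14 were higher and 3 lower. SRXN1, which repairs peroxiredoxins, was at 2.33, 3.53 and 3.42 CPM in DMSO and 28.5, 27.7 and 46.8 CPM with the combination. Combination library 3 was well above the other 2, and the log2 fold change was 3.48 (SE 0.23) (edgeR adjusted p = 1.2e-12). OSGIN1 was lower with the combination than with afatinib alone (log2 difference -0.43, edgeR adjusted p = 0.00592). SLC7A11, whose combination and afatinib values overlapped, was at 161, 199.99 and 171 CPM with the combination, 182, 185 and 184 CPM with afatinib and 29.6, 31.3 and 31.5 CPM with romidepsin. NFE2L2 gave 0.02 and did not pass the test, and KEAP1 fell (log2 fold change -2.0).

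Sterol genes rose as a group. SREBP factors, held in the endoplasmic reticulum by INSIG proteins when sterols are plentiful, drive the genes of cholesterol and fatty acid synthesis. INSIG1 was at 83, 81.7 and 83 CPM in DMSO, 366, 383 and 391.9 CPM with romidepsin, 178, 178 and 164 CPM with afatinib and 1433, 1486 and 1384 CPM with both. No 2 of these groups overlapped, and the log2 fold change of the combination over DMSO was 4.12 (SE 0.06) (edgeR adjusted p = 1.42e-44). HMGCS1, an early enzyme of the mevalonate route, rose from 25.8, 30.9 and 30.7 CPM to 371, 413 and 365 CPM (log2 fold change 3.72, SE 0.07, adjusted p by edgeR 1.35e-39). FASN, the fatty acid synthase, was at 1507, 1684 and 1477 CPM in DMSO and 7819.8, 7153 and 8247 CPM with the combination. It stood at 2036 ± 203 CPM with romidepsin and 1622 ± 76.4 CPM with afatinib (mean ± SD, n = 3 each), and the combination exceeded both (log2 difference 1.93, edgeR adjusted p = 2.8e-28, and 2.25, edgeR adjusted p = 8.82e-32).

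Of 27 tested sterol genes, 22 were higher and 3 lower, with a median of 1.10, against 0.63 for romidepsin alone and 0.61 for afatinib alone. MVD (2.17), MVK (2.05), IDI1 (1.5) and SQLE (1.32) were among the rises. PMVK (-0.4), FDPS (-0.29) and SREBF2 (-0.35) were the 3 that fell, and FDFT1 and NSDHL were not called. ABCG1 (2.0) and NPC1 (1.59), which move sterol out of cells and lysosomes, also rose. In the fatty acid list 15 of 22 were higher and 4 lower, with both synthesis genes such as ACSS2 (1.64) and CPT1A of oxidation (1.68) higher. The desaturases FADS1 (-0.87) and FADS2 (-0.67) fell.

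Lysosomal genes made up another rising group, with 22 of 27 tested members higher and the other 5 not called by edgeR (median 1.14). NEU1, the lysosomal sialidase, was at 2.83, 4.34 and 2.8 CPM in DMSO and 118, 110.3 and 135 CPM with the combination (log2 fold change 5.2, SE 0.13, adjusted p by edgeR 4.68e-35). With romidepsin alone it was at 42.6, 34.6 and 34.2 CPM and with afatinib alone at 13.3, 14.6 and 11.6 CPM, so all 4 groups were apart. The proton pump subunit ATP6V0D1 (2.02), the calcium channel MCOLN1 (1.86), and GRN (1.73) rose, and the proteases CTSB and CTSS gave 0.01 and -0.42. Autophagy genes were mostly higher, 17 of 26 against 5 lower. The median of the autophagy list was 0.66 with the combination, 0.73 with romidepsin alone and 0.18 with afatinib alone. Tested directly, 10 of the 26 were above romidepsin alone and 6 below it, and 14 were above afatinib alone and 5 below it. MAP1LC3B, the lipidated protein that marks autophagosomes, went from 74.9, 67.4 and 77.9 CPM to 1115, 1202 and 1098 CPM (log2 fold change 3.95, SE 0.07, adjusted p by edgeR 4.81e-42). With the single drugs it stood at 224, 268 and 239 CPM (romidepsin) and 247, 236 and 234 CPM (afatinib). The cargo receptors SQSTM1 (2.69) and OPTN (2.94) rose, and BECN1 of the initiation complex fell (-1.0).

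The NEU1 promoter is shown because NEU1 had the largest change of the lysosomal list and its window holds an E-box, the CACGTG palindrome that TFEB, TFE3 and MYC-family factors bind. The window lies on chromosome 6 (chr6:31862772-31863071, minus strand, GRCh38.p14 from RefSeq), and the match, in capitals, begins 126 bases before the start.
NEU1: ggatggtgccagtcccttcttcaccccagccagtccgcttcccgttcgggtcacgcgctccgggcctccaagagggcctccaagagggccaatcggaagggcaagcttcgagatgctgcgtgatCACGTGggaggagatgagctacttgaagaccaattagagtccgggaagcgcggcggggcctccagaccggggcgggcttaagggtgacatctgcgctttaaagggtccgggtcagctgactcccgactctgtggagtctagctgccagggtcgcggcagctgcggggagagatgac
The E-box was found in 6 of the 15 list members with a promoter (40%), against 10% of all tested genes with one. Its share was 9.10% of genes at least 2-fold higher and 11.9% of genes at least 2-fold lower. The 6 all rose, but so did most of the list (22 of 27 tested), with GRN and NPC2 among those without a match.

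Replication and division genes fell in nearly every case. MKI67, the proliferation antigen Ki-67, was at 1438, 1432 and 1653 CPM in DMSO and 272, 269 and 272 CPM with the combination (log2 fold change -2.48, SE 0.06, adjusted p by edgeR 2.16e-36). With romidepsin it was at 623, 637 and 578 CPM and with afatinib at 968, 1002 and 1041 CPM, and the combination was below both (log2 difference -1.18, edgeR adjusted p = 9.11e-23, and -1.89, edgeR adjusted p = 8.44e-32). PLK1, a mitotic kinase, fell from 255, 281 and 241 CPM to 53.6, 48.7 and 54.2 CPM (log2 fold change -2.31, SE 0.07, adjusted p by edgeR 2.21e-32). MCM7, a subunit of the replicative helicase, fell from 606, 665 and 576 CPM to 112, 89.1 and 111 CPM (log2 fold change -2.57, SE 0.07, adjusted p by edgeR 2.12e-33). Of 44 tested G2 and M phase genes 43 were lower and 1, the securin PTTG1 (0.79), was higher, with a median of -1.42. Of 38 S phase genes 35 were lower and 2 higher, the ribonucleotide reductase subunit RRM2 (0.2) and the histone mRNA binding protein SLBP (0.44), with a median of -1.22. The medians with romidepsin alone were -0.72 and -0.87, and with afatinib alone -0.57 and -0.19.

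The regulators upstream of these genes moved in both directions. CDKN1A, the CDK inhibitor p21, rose from 314, 303 and 273 CPM to 1086, 1076 and 1095 CPM (log2 fold change 1.87, SE 0.06, adjusted p by edgeR 1.43e-32), below its level of 1319, 1292 and 1238 CPM with romidepsin alone. CDKN2D (1.93), CCNE2 (2.06), CCND3 (1.04) and CCNG2 (1.16) also rose, while CCND2 (-1.7), CDK4 (-1.24) and E2F8 (-2.71) fell. FOXM1, a driver of mitotic genes, fell (log2 fold change -2.16). MYC rose slightly, from 639.7, 639 and 590.0 CPM to 709, 679 and 727 CPM (log2 fold change 0.18, SE 0.05, adjusted p by edgeR 0.0022), with the groups apart. Its antagonists MXD1 (3.53), MXI1 (1.82) and MXD4 (1.34) rose. Of 15 forkhead and quiescence genes 13 were higher, TSC22D3 (3.1), CITED2 (2.47) and KLF2 (1.73) among them, and FOXO3 was lower (-0.15). Repair genes fell with replication, 25 of 29 of the homologous recombination and Fanconi list, led by FANCD2 (-2.61), and 23 of 31 of the other repair list, led by UNG (-2.15).

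The promoters of MCM6 and PLK1 are shown as examples from the 2 falling lists. For MCM6, on chromosome 2 (window chr2:135876394-135876693, minus strand), the capitals mark 2 matches to the E2F site TTTGGCGC, beginning 152 and 90 bases before the start. For PLK1, on chromosome 16 (window chr16:23678639-23678938, plus strand), they mark the cell cycle homology letters TTTGAA, beginning 29 bases before the start. Both come from RefSeq on GRCh38.p14, and both strands were searched.
MCM6: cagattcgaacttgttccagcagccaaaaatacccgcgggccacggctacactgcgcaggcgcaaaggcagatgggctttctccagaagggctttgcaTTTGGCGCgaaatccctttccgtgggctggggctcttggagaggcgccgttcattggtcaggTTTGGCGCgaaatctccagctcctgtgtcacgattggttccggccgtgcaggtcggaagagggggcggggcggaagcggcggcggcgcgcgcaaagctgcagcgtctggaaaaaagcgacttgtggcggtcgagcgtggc
PLK1: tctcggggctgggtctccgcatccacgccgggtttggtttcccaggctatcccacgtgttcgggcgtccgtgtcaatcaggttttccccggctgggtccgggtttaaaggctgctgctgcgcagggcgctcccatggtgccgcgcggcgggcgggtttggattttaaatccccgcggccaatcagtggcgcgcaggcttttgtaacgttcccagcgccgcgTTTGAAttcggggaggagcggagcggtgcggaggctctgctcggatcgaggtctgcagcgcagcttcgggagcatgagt
TTTGGCGC was found in 6 of 33 S phase genes with a promoter (18.2%) and in 1.05% of all tested genes, 0.421% of genes at least 2-fold higher and 1.91% of those at least 2-fold lower. TTTGAA was found in 22 of 37 G2 and M phase genes (59.5%) and in 9.77% of all tested genes, 7.94% of genes at least 2-fold higher and 15% of those at least 2-fold lower. The genes at least 2-fold lower include 25 of the 38 tested S phase genes and 33 of the 44 G2 and M phase genes. These shares are therefore not separate observations.

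Several lists of housekeeping genes were mostly lower. Over all tested genes 37.1% were lower, and of the 2097 genes over 100 CPM on average 55.2% were. Ribosome biogenesis genes were lower in 31 of 35 cases (median -0.89), nucleotide synthesis genes in 16 of 20 (-1.21), splicing factors in 26 of 29 (-0.91), proteasome subunits in 26 of 28 (-0.71) and mitochondrial ribosomal proteins in 27 of 32 (-1.14). No proteasome subunit or mitochondrial ribosomal protein was called higher by edgeR. In the translation initiation and elongation list 15 of 22 were lower and 6 higher (median -0.29). PFAS of purine synthesis was at 305, 316 and 289 CPM in DMSO and 53.9, 47.7 and 56.1 CPM with the combination (log2 fold change -2.53, SE 0.07, adjusted p by edgeR 1.58e-34). U2AF2, a splice site factor, fell from 402, 436 and 392.1 CPM to 76, 62.4 and 65.5 CPM (log2 fold change -2.6, SE 0.06, adjusted p by edgeR 1.97e-35). EIF5A, a translation elongation factor, fell from 1193, 1126 and 1115 CPM to 248, 258 and 273 CPM (log2 fold change -2.14, SE 0.05, adjusted p by edgeR 2.68e-35). MYBBP1A (-1.94) and WDR43 (-1.91) of ribosome assembly, HNRNPU (-1.94) and PSMC3 (-1.7) fell on the log2 scale. PPAT, the first step of purine synthesis, was an exception and rose (1.1), as did the kinase CLK1 (0.49).

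Cytosolic ribosomal proteins themselves changed less, with 21 of 41 lower, 4 higher and a median of -0.13. The counts of lower genes in this paragraph stand beside 55.2% lower among all tested genes over 100 CPM on average. EEF1A1, an elongation factor, was at 19234, 18729.7 and 17204 CPM in DMSO and 15594, 14969.9 and 15825 CPM with the combination (log2 fold change -0.25, SE 0.06, adjusted p by edgeR 0.000166). Without the 4 libraries with keratin reads that difference did not pass (log2 fold change -0.09, edgeR adjusted p = 0.394). EEF2, which moves the ribosome along the message, rose from 3019, 3239 and 2789 CPM to 4691, 4124 and 4983 CPM (log2 fold change 0.61, SE 0.06, adjusted p by edgeR 4.77e-12). Mitochondrially encoded messages were lower for 9 of 13, with MT-ND2 falling from 7538, 6797 and 9086 CPM to 3918, 4690.5 and 3843 CPM (log2 fold change -0.91, SE 0.09, adjusted p by edgeR 1.71e-09). Afatinib alone gave 4252, 4167 and 4384 CPM for MT-ND2, and the combination did not differ from it by the test (log2 -0.04, edgeR adjusted p = 0.69). DMSO library 3, with the highest mitochondrial share, was also the highest for MT-ND2, and without it the log2 fold change was -0.8. Nuclear-encoded respiratory genes were lower for 17 of 34 and higher for 5, with CYC1 (-1.91) and NDUFS3 (-2.07) lowest.

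Sugar metabolism was split by gene. The glucose transporter SLC2A3 rose from 47.5, 54.4 and 55.6 CPM to 877, 917 and 890.4 CPM (log2 fold change 4.09, SE 0.06, adjusted p by edgeR 2.32e-43), and the aldolase ALDOC from 59.7, 59.3 and 61.5 CPM to 676, 586 and 678 CPM (log2 fold change 3.43, SE 0.06, adjusted p by edgeR 2.33e-40). PFKFB3 (2.09) and ALDOA (1.41) also rose. Across the list 14 of 22 were lower, including PFKM (-2.28), PGAM1 (-1.54), HK2 (-1.08) and LDHA (-0.83). In the tricarboxylic acid cycle list the cytosolic enzymes IDH1 (3.28) and ACO1 (2.29) rose, while 15 of 26 fell, SUCLG2 (-2.64) furthest. The counts of lower genes in both lists stand beside 37.1% lower of all tested genes and 55.2% of those over 100 CPM on average. Among hypoxia genes, NDRG1 rose from 5.59, 5.25 and 3.94 CPM to 77.1, 74.8 and 70 CPM (log2 fold change 3.91, SE 0.11, adjusted p by edgeR 7.36e-33), while VEGFA fell (log2 fold change -0.26).

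The 8 tested T cell markers were all lower (median -1.90), and their summed level, with the 5 untested markers included, was 1694, 1643 and 1601 CPM in DMSO and 348, 336 and 339 CPM with the combination. CD2, an adhesion receptor of T cells, went from 162, 148 and 151 CPM to 21.6, 20.9 and 20.9 CPM (log2 fold change -2.86, SE 0.08, adjusted p by edgeR 2.93e-33). CD3G (-2.57), CD247 (-2.34), CD3D (-1.46) and TRAC (-1.41) of the receptor complex fell, as did ZAP70 (-1.81) and SH2D1A (-3.03). FYN (0.9) and PRKCQ (0.99) rose. Of 23 tested genes of the receptor complex and its signalling, 16 were lower and 3 higher, with a median of -1.23, and single-drug medians of -0.78 (romidepsin) and -0.19 (afatinib). TIGIT, an inhibitory receptor, fell from 531, 515 and 534 CPM to 59.7, 60.8 and 56.9 CPM (log2 fold change -3.15, SE 0.06, adjusted p by edgeR 3.05e-40). CD40LG (-2.94), CTLA4 (-2.19), TNFRSF8, the CD30 antigen (-2.14), and ICOS (-1.77) fell, while TNFRSF9, the 4-1BB receptor (2.93), LAG3 (3.66) and CD274, the PD-L1 ligand (1.83), rose.

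Skin-homing and adhesion receptors were lower for 15 of 26, against 37.1% of all tested genes and 55.2% of those over 100 CPM on average. CCR4, a skin-homing chemokine receptor, fell from 494, 439.5 and 459 CPM to 90.3, 97.6 and 80.9 CPM (log2 fold change -2.37, SE 0.06, adjusted p by edgeR 1.07e-34). ITGAL, the LFA-1 alpha chain, fell from 345, 333 and 336 CPM to 30.6, 31.2 and 31.6 CPM (log2 fold change -3.44, SE 0.07, adjusted p by edgeR 4.69e-40). GPR183, a receptor for oxysterols that guides lymphocytes, fell from 33.4, 28.9 and 29.2 CPM to 0.721, 0.458 and 1.3 CPM (log2 fold change -5.18, SE 0.21, adjusted p by edgeR 4.56e-27). CD44 (1.78), ITGB1 (1.75) and CD69 (2.53) rose. Of 27 tested lineage transcription factors 10 were higher and 12 lower, and the list's median was -0.28, or 0.20 without the 4 libraries with keratin reads and 0.12 without DMSO library 1. IKZF1 (-2.21), LEF1 (-1.72), ETS1 (-1.38) and BCL11B (-1.17) fell, and MAF (4.43), RORA (1.94) and IRF4 (1.66) rose.

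Cytokine transcripts showed some of the widest changes in both directions. IL22, a cytokine that acts on epithelium, was at 0.5, 2.12 and 2.89 CPM in DMSO and 92.7, 84.3 and 94 CPM with the combination (log2 fold change 5.64, SE 0.15, adjusted p by edgeR 1.15e-30), below 201, 204 and 202 CPM with romidepsin alone (log2 difference -1.16, edgeR adjusted p = 2.13e-15). IL9 rose from 14.7, 16.4 and 19.8 CPM to 298, 269 and 287 CPM (log2 fold change 4.07, SE 0.08, adjusted p by edgeR 3.54e-39), while afatinib alone held it at 3.32, 4.45 and 4.9 CPM, under DMSO. LIF, of the IL-6 family, fell from 888, 891 and 914 CPM to 41.5, 39 and 40.3 CPM (log2 fold change -4.48, SE 0.06, adjusted p by edgeR 1.42e-44). OSM, of the same family, was at 396, 411 and 342 CPM in DMSO, 314, 290.4 and 284 CPM with romidepsin, 209, 222 and 218 CPM with afatinib and 50.7, 46.3 and 45.6 CPM with both. The combination was thus below each single drug (log2 difference -2.64, edgeR adjusted p = 1.44e-33, and -2.19, edgeR adjusted p = 2.01e-31). LTA showed a like order, at 84.1 ± 4.89 CPM with romidepsin, 31.8 ± 3.86 CPM with afatinib and 12.2 ± 1.64 CPM (mean ± SD, n = 3 each) with both, against 105 ± 3.92 CPM in DMSO. CCL22, a ligand of CCR4, fell from 44.6, 51.6 and 44.2 CPM to 2.25, 2.06 and 1.45 CPM (log2 fold change -4.61, SE 0.17, adjusted p by edgeR 1.15e-28). CSF2RB, the shared beta chain of the IL-3, IL-5 and GM-CSF receptors, fell from 173, 169.7 and 183 CPM to 5.23, 6.57 and 8.02 CPM (log2 fold change -4.71, SE 0.1, adjusted p by edgeR 4.78e-39). Of 23 tested cytokines and chemokines 6 were higher and 14 lower, against 37.2% and 37.1% of all tested genes.

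**Figure D3:**
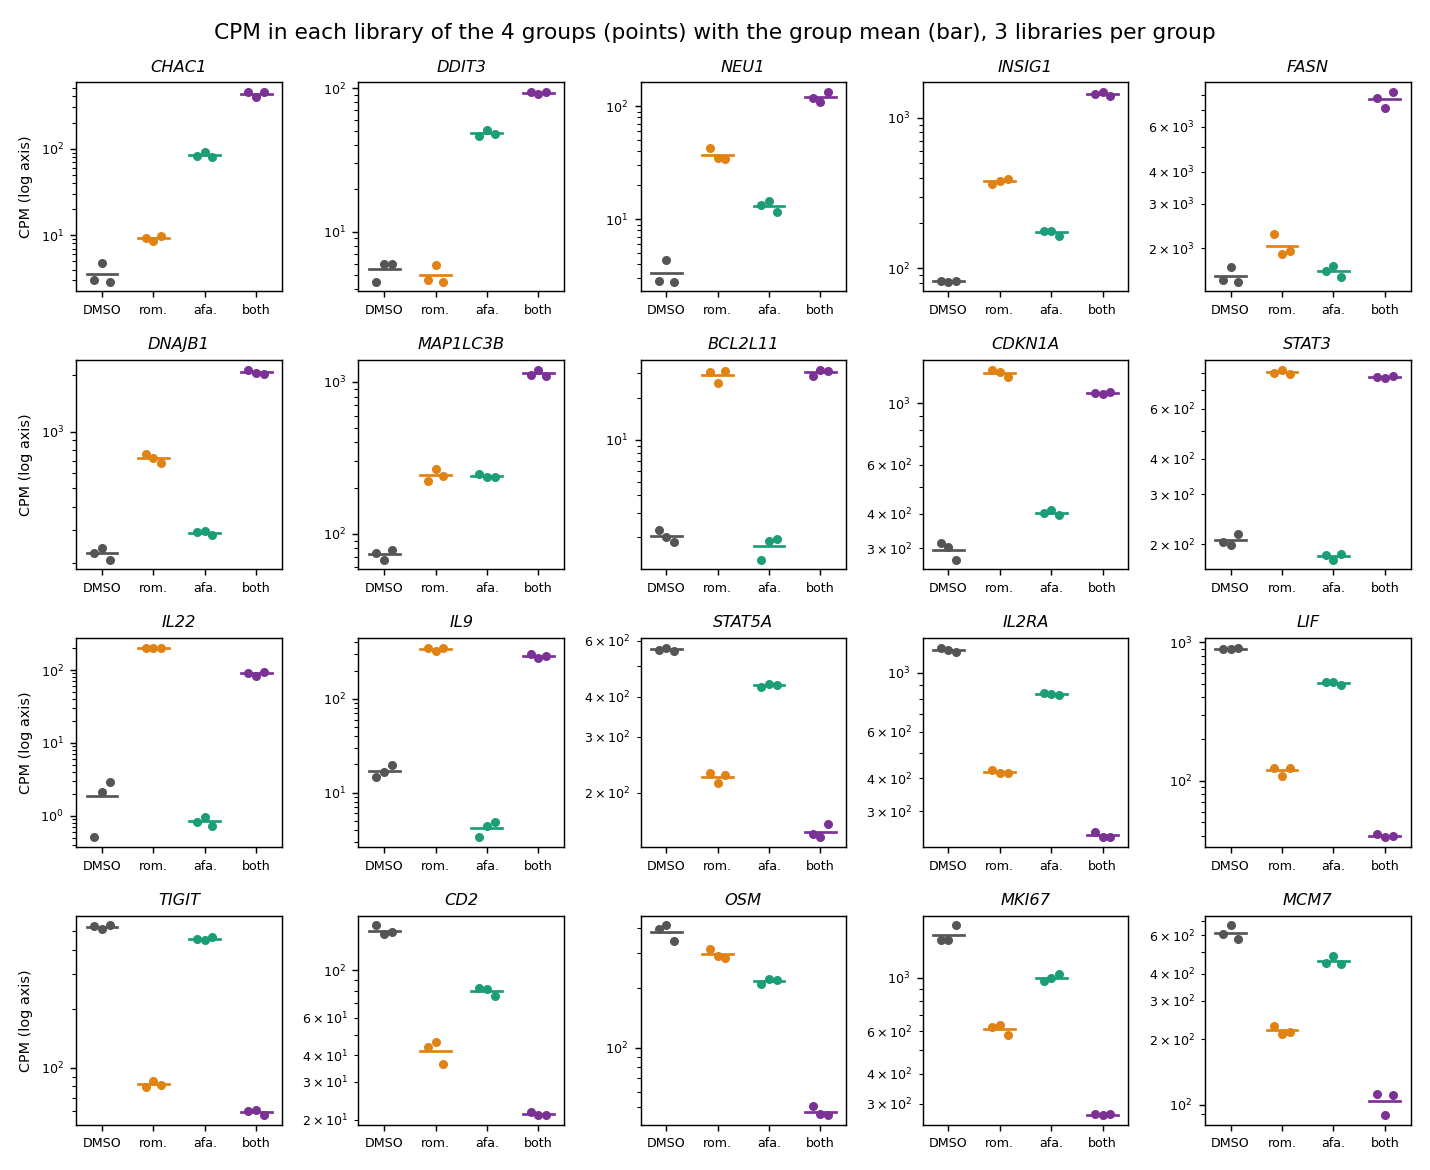
CPM (log axis) of 20 named genes in each of 3 libraries (points) with the group mean (bar) for DMSO, romidepsin (rom.), afatinib (afa.) and the combination (both). In all 20 panels the combination points lie clear of the DMSO points, and in panels such as FASN, OSM and CHAC1 they also lie clear of both single-drug groups.

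The receptor-to-STAT chain changed at several steps. IL2RA, the high-affinity IL-2 receptor chain, was at 1247, 1226 and 1201 CPM in DMSO and 251, 239 and 240.0 CPM with the combination (log2 fold change -2.33, SE 0.05, adjusted p by edgeR 3.51e-37). IL2RB (-1.03) and IL2RG (-0.63) fell by less on the log2 scale. JAK3, which carries the cysteine that afatinib can bind, fell from 249.4, 235 and 276 CPM to 66.5, 70.1 and 72.7 CPM (log2 fold change -1.86, SE 0.06, adjusted p by edgeR 7.64e-30), and JAK1 rose from 64.9, 61.7 and 61.8 CPM to 113, 119 and 115 CPM (log2 fold change 0.88, SE 0.07, adjusted p by edgeR 2.04e-16). STAT5A fell from 563, 571 and 559 CPM to 148, 145 and 159 CPM (log2 fold change -1.9, SE 0.06, adjusted p by edgeR 7.36e-33), and STAT5B (-1.39) and STAT6 (-2.62) fell with it. STAT3 rose from 204, 198 and 218 CPM to 778, 769 and 781 CPM (log2 fold change 1.91, SE 0.05, adjusted p by edgeR 2.04e-33), and STAT4 (4.39), STAT2 (1.82), JAK2 (1.15) and IL6ST, the gp130 chain (2.2), rose too. STAT4 lay at the limit of detection in DMSO, with 3, 1 and 2 counts, against 62, 42 and 43 with the combination. Romidepsin alone gave 52, 49 and 59 counts of STAT4. SOCS3, a feedback inhibitor of JAKs, rose from 830.0, 812 and 755 CPM to 4024, 3972 and 4259.9 CPM (log2 fold change 2.35, SE 0.06, adjusted p by edgeR 1.79e-36). STAT3 stood at 804, 823 and 794 CPM with romidepsin alone all above the combination libraries, a difference that did not pass the test (log2 -0.06, edgeR adjusted p = 0.358). The STAT3 and STAT5 target list was split, 9 of 19 higher and 8 lower.

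Of the drug targets, EGFR, ERBB3 and ERBB4 did not pass the low-count filter, with at most 13, 18 and 3 counts in any of the 12 libraries. ERBB2 was at 3.59, 5.35 and 6.04 CPM in DMSO and 9.2, 7.41 and 9.55 CPM with the combination (log2 fold change 0.81, SE 0.19, adjusted p by edgeR 0.000175), and without the 4 libraries with keratin reads the adjusted p was 0.0726. HDAC1 fell from 89.4, 91.5 and 87.7 CPM to 62.8, 65.9 and 59.4 CPM (log2 fold change -0.51, SE 0.07, adjusted p by edgeR 5.16e-09), and HDAC3 rose from 39, 41.3 and 44.2 CPM to 67.4, 59.3 and 61.5 CPM (log2 fold change 0.59, SE 0.08, adjusted p by edgeR 6.48e-09). HDAC2 fell slightly (-0.34), a call lost without the 4 keratin-read libraries (edgeR adjusted p = 0.293). Of 14 tested deacetylases 9 were higher and 4 lower, HDAC7 furthest down at -1.58 and HDAC9 furthest up at 1.65. Acetyltransferases and bromodomain readers were lower for 12 of 15, with KAT5 (-2.27), KAT2A (-1.79) and KAT7 (-1.57) lowest. Of the methylation machinery, UHRF1 (-2.47), DNMT1 (-1.66), SUV39H1 (-2.7) and TET1 (-2.48) fell and EZH2 rose (0.75).

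Genes that histone deacetylase inhibitors often raise did so here for 15 of 20. SAT1, a polyamine acetyltransferase, rose from 26, 24.1 and 22 CPM to 252, 241 and 256 CPM (log2 fold change 3.37, SE 0.07, adjusted p by edgeR 6.19e-38), near 205, 209 and 225 CPM with romidepsin alone. The list's median was 1.83 with the combination and 1.81 with romidepsin alone, and 0.34 with afatinib alone. H1F0 (-1.62), CLU (-1.31) and MT2A (-0.83), also usual members, fell, H1F0 and CLU with at most 26 and 22 counts in any library. Neuronal genes that REST silences outside neurons were higher for 14 of 20, SYN1 rising from 2, 3.23 and 3.15 CPM to 44.5, 33.5 and 37.7 CPM (log2 fold change 3.79, SE 0.16, adjusted p by edgeR 1.36e-26), and REST itself was lower (-0.57). Replication-dependent histone messages, which normally lack a poly(A) tail, were higher for 15 of 19 tested, of 27 listed, although S phase genes fell. HIST1H3H was at 2.25, 2.32 and 1.75 CPM in DMSO and 11.7, 11.2 and 9.78 CPM with the combination (log2 fold change 2.36, SE 0.19, adjusted p by edgeR 2.36e-15). How RNA was selected is not given in the sources used here, and histone gene copies are alike in sequence, so their split between copies is uncertain. Tubulins were split, TUBA1A (2.62), TUBB2A (4.2) and TUBB3 (4.51) rising and TUBB (-1.89) and TUBA1B (-1.56) falling, and these too are alike in sequence.

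Cell death genes moved on both sides. BCL2L11, the BH3-only killer BIM, rose from 2.25, 2.02 and 1.84 CPM to 28.8, 31.9 and 31 CPM (log2 fold change 3.9, SE 0.16, adjusted p by edgeR 1.1e-26), and romidepsin alone gave 30.6, 25.7 and 31.3 CPM. BMF, another BH3-only gene, rose from 8, 8.78 and 6.48 CPM to 61.8, 61 and 62.5 CPM (log2 fold change 3.0, SE 0.11, adjusted p by edgeR 3.63e-29). PMAIP1, the gene of NOXA, rose by 1.46 on the log2 scale and BAX fell (-1.43). Of the survival members, BCL2L1 fell from 317, 299 and 308 CPM to 76.9, 82 and 78.5 CPM (log2 fold change -1.96, SE 0.06, adjusted p by edgeR 4.02e-32), while MCL1 rose from 327, 334 and 346 CPM to 575, 629 and 591 CPM (log2 fold change 0.83, SE 0.05, adjusted p by edgeR 1.71e-19) and BCL2 rose by 0.77. On the receptor side, FAS fell from 143, 133 and 134 CPM to 16.6, 18.5 and 12.5 CPM (log2 fold change -3.11, SE 0.09, adjusted p by edgeR 1.04e-31) and its inhibitor CFLAR fell as well (-2.17). FAS was at 208, 206 and 213 CPM with afatinib alone and 18.6, 21.8 and 16 CPM with romidepsin alone. GSDME (-3.3) and MLKL (-2.69), which open membrane pores, fell, and CASP9 (1.77) and CASP1 (2.35) rose.

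Interferon and antigen presentation genes did not move as one. Of 22 tested interferon-stimulated genes 10 were higher and 6 lower. OAS2 (-2.93) and MX2 (-2.7) fell, and IFI6 (2.05), STAT2 (1.82), IRF9 (1.57) and IRF7 (1.56) rose. In the list of guanylate-binding proteins, APOL genes, IRF1 and related genes, 6 of 14 were higher and 8 lower, with a median of -1.31 against 1.01 for romidepsin alone. APOL3 was at 11.5, 10.1 and 9.72 CPM in DMSO, 16.4, 20.5 and 17.3 CPM with romidepsin, 4.51, 4.54 and 4.5 CPM with afatinib and 2.52, 2.9 and 2.52 CPM with both. It was above DMSO in all 3 romidepsin libraries and below DMSO in all 3 combination libraries (combination against romidepsin, log2 -2.75, edgeR adjusted p = 1.11e-18). Peptide loading genes were lower for 11 of 18, against 37.1% of all tested genes and 55.2% of those over 100 CPM on average. PSMB8 (-2.55), PSMB10 (-2.21) and TAPBP (-1.84) were lowest. CIITA, the master factor of class II genes, fell from 632, 666 and 669.6 CPM to 163, 171 and 171 CPM (log2 fold change -1.96, SE 0.05, adjusted p by edgeR 1.62e-33).

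Growth factor feedback and immediate early genes were mostly higher, 11 of 17 and 14 of 20, against 37.2% of all tested genes. SPRY4, an inhibitor of receptor signalling to RAS, was at 0.917, 1.01 and 0.788 CPM in DMSO and 14.6, 17.6 and 12.6 CPM with the combination (log2 fold change 4.03, SE 0.24, adjusted p by edgeR 2.13e-20). ETV5 (3.98), PHLDA1 (2.93) and DUSP2 (2.08) rose, and DUSP1 (-1.15) and DUSP4 (-1.09) fell. FOS (3.66), FOSB (2.43) and KLF10 (1.96) rose, and EGR1 (0.05) was not called. NF-kB genes were lower for 15 of 24, against 37.1% of all tested genes and 55.2% of those over 100 CPM on average. LTB fell from 43.9, 49.4 and 37.3 CPM to 3.43, 2.52 and 3.36 CPM (log2 fold change -3.81, SE 0.15, adjusted p by edgeR 4.48e-27), while NFKBIZ (2.35) and TNFAIP3 (1.29) rose. In the Notch, Wnt and Hippo list JAG2 rose from 4, 3.53 and 2.89 CPM to 57.8, 58.1 and 58.4 CPM (log2 fold change 4.06, SE 0.13, adjusted p by edgeR 7.83e-31) and YAP1 fell from 107, 102 and 118 CPM to 20.4, 21.2 and 18.1 CPM (log2 fold change -2.46, SE 0.08, adjusted p by edgeR 3.18e-30).

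Actin genes were lower for 18 of 28, against 37.1% of all tested genes and 55.2% of those over 100 CPM on average. ACTB fell from 6386, 6759.6 and 6246 CPM to 3421, 3229 and 3428 CPM (log2 fold change -0.94, SE 0.05, adjusted p by edgeR 7.97e-21), close to 3433, 3536 and 3341 CPM with afatinib alone and below 8072, 7740.3 and 7358 CPM with romidepsin alone. WIPF1 (-2.39), MYO1G (-1.87), PFN1 (-1.2) and CORO1A (-1.13) fell. FLNA, an actin crosslinker, gained the most CPM of any gene, from 4384, 4836 and 4122 CPM to 11958, 10546 and 12546 CPM (log2 fold change 1.39, SE 0.07, adjusted p by edgeR 1.16e-23). GSN also rose (2.02), but had at most 16 counts in any library. PTMA, prothymosin alpha, lost CPM from 3641, 3378 and 3185 CPM to 1091, 1081 and 1059 CPM (log2 fold change -1.66, SE 0.06, adjusted p by edgeR 3.21e-30). The nuclear RNA NEAT1 rose from 936, 945 and 1435 CPM to 6895, 6916 and 6663 CPM (log2 fold change 2.63, SE 0.18, adjusted p by edgeR 7.67e-07), with DMSO library 3 above the other 2.

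**Figure D4:**
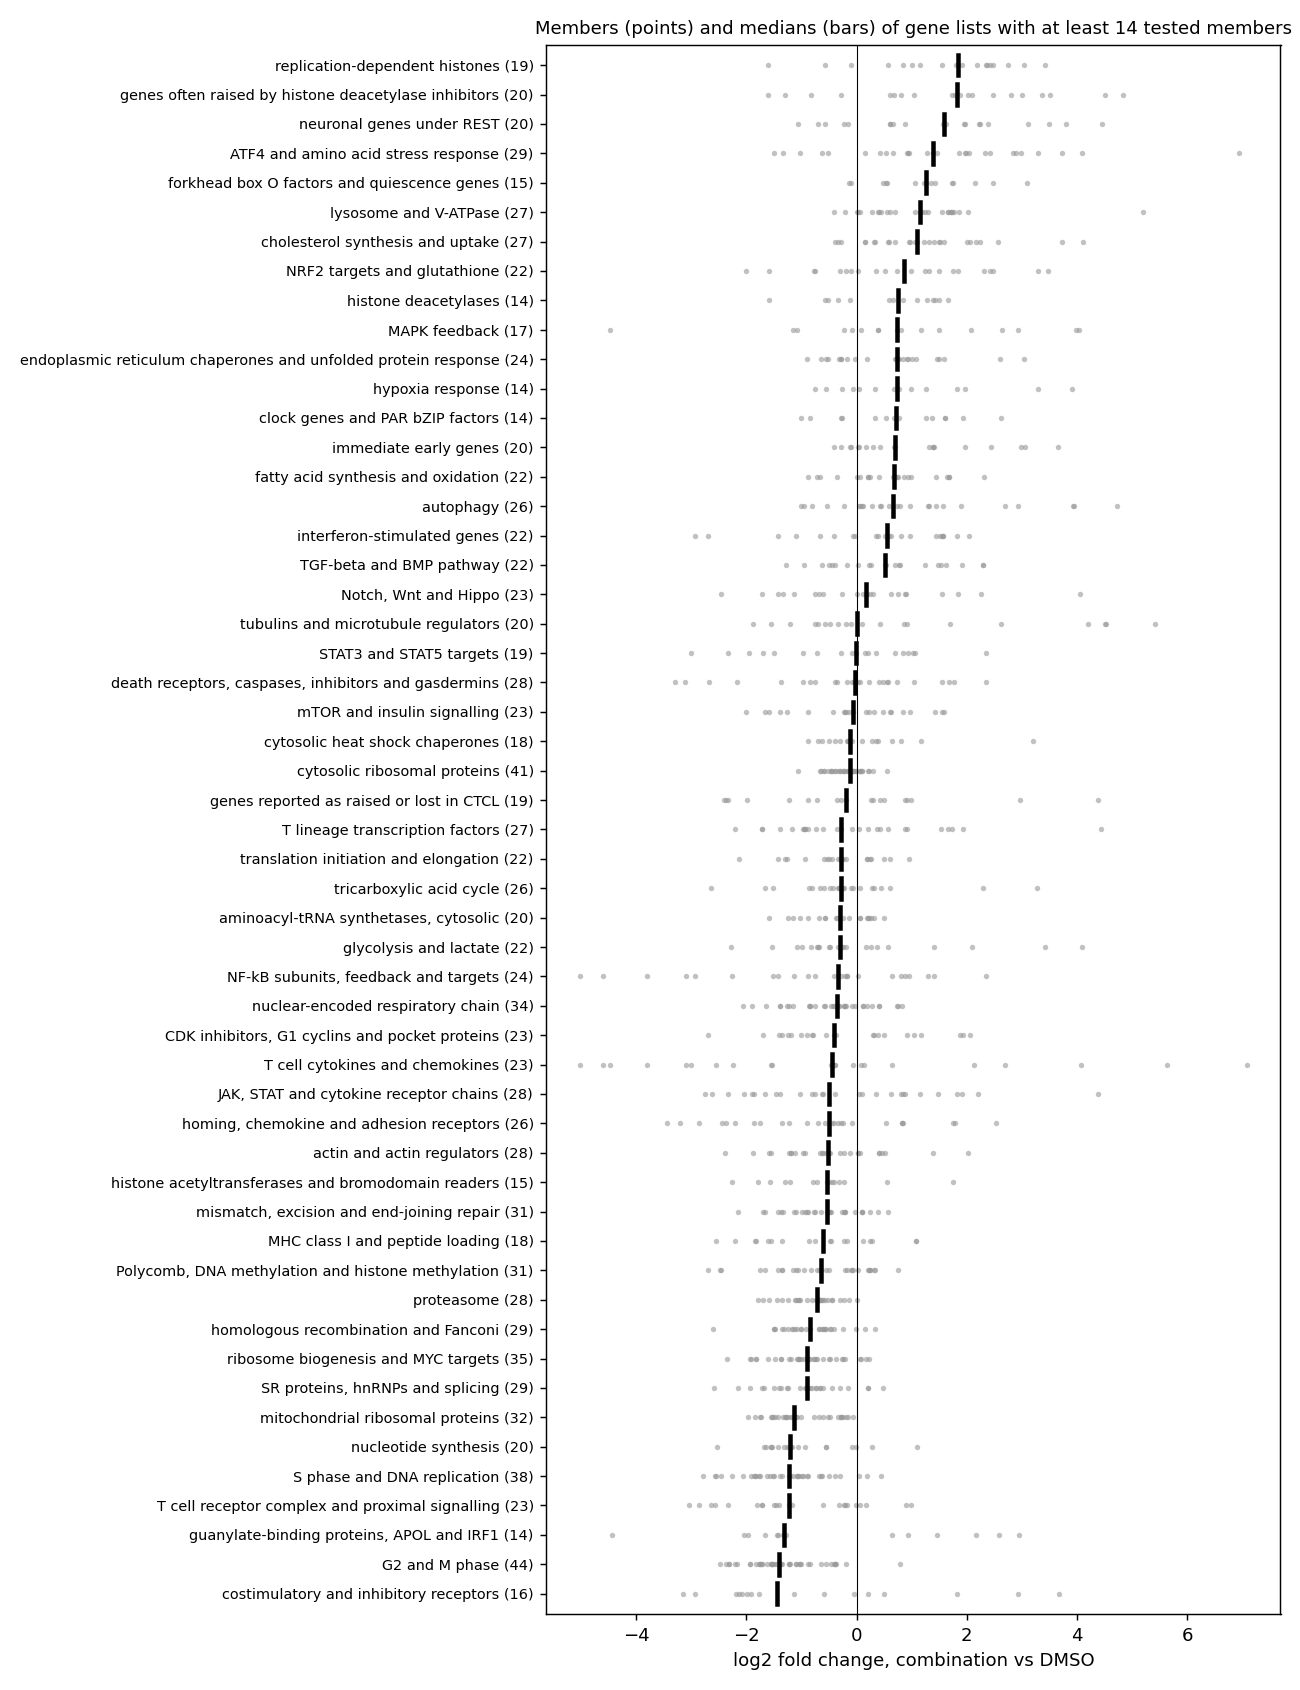
Log2 fold change of the combination against DMSO (horizontal axis) for each tested member (points) of 53 lists in which 14 or more genes were tested, with the list median (bar) and the number tested in brackets. Replication-dependent histones lie at the top with a median of 1.84 and costimulatory and inhibitory receptors at the bottom with -1.45, against -0.01 for all genes.

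The genes with the largest folds were often near the limit of detection in 1 group. STC1, the secreted hormone stanniocalcin, was at 0.0834, 0.606 and 0.526 CPM in DMSO and 92.3, 100.4 and 96.6 CPM with the combination (log2 fold change 7.91, SE 0.18, adjusted p by edgeR 2.63e-37), and at 83.2, 103 and 89.1 CPM with romidepsin alone. SMIM10L2A was at 0 counts in all 3 DMSO libraries and at 104, 122 and 157 counts in the combination libraries. That is about 114-fold or more against a floor of 3 counts over the DMSO group. Romidepsin alone gave 132, 58 and 123 counts of SMIM10L2A and afatinib alone 5, 5 and 0. SMIM10L2A and SMIM10L2B are near-identical copies, so the split of reads between them is uncertain. The long noncoding RNAs LINC01554 (54.6, 60.3 and 50.3 CPM against 0.917, 0.404 and 0.701 CPM) and LINC01619 (73.2, 69.1 and 62.5 CPM against 0.417, 1.21 and 1.23 CPM) rose. SLCO2B1, an organic anion transporter, had 2, 1 and 0 counts in DMSO and 138, 144 and 134 with the combination (edgeR adjusted p = 5.38e-21), and romidepsin and afatinib alone gave 0.868 ± 0.354 and 7.62 ± 1.45 CPM (mean ± SD, n = 3 each). Among the genes that fell far were the transcription factor MKX, from 11, 10.3 and 10.9 CPM to 0.27, 0.153 and 0.382 CPM (log2 fold change -5.27, SE 0.3, adjusted p by edgeR 5.95e-21), and TFAP2C, from 15.6, 15.1 and 14.3 CPM to 0.451, 0.306 and 0.688 CPM (log2 fold change -4.93, SE 0.26, adjusted p by edgeR 1.73e-22). RGPD1, RGPD3 and RGPD4 fell by -4.2, -4.5 and -4.5 in log2 fold change, as did KCNJ18 (-4.51), and all 4 have near-identical copies, so each is uncertain.

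By counts, 168 genes (95 of them protein coding) were seen with the combination and not with DMSO. They had at most 3 counts in every DMSO library and at least 1 CPM in every combination library. The single-drug libraries had no part in this rule, and some of these genes were also seen with a single drug. The opposite held for 17 genes (7 protein coding). ENTPD8 was the most abundant protein-coding gene of the first kind after SMIM10L2B, SLCO2B1 and SMIM10L2A, with 2, 2 and 1 counts in DMSO and 121, 112 and 115 with the combination. Romidepsin alone gave 60, 19 and 50 counts of ENTPD8 and afatinib alone 3, 8 and 5. BEND5 led the second kind with 84, 82 and 61 counts in DMSO and 1, 3 and 3 with the combination. Its counts were 9, 1 and 1 with romidepsin alone and 33, 36 and 33 with afatinib alone. These genes were picked by their counts in these libraries, so the counts describe them and test nothing.

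Several marker genes of other cell types were expressed, and some moved. Of 20 keratinocyte markers 11 were tested, 2 higher and 6 lower, and their summed level was 334 to 382 CPM in DMSO and 232 to 244 CPM with the combination. Most of that sum came from SFN, TP63, PERP and KRT10, while KRT1, KRT6B, LGALS7 and IVL were at 0 in all 6 libraries. Of 10 fibroblast markers 5 were tested and 4 fell, COL1A1 from 109, 113 and 136 CPM to 9.02, 8.71 and 8.33 CPM and COL3A1 from 64.1, 62 and 63.2 CPM to 7.84, 7.33 and 5.88 CPM, with DCN and LUM at 0 in all 6 libraries. Of 7 melanocyte markers 4 were tested and all rose from a low level (summed 1.11 to 2.58 CPM in DMSO and 11 to 13 CPM with the combination), with TYRP1 at 0 in all 6. Of 9 B cell markers 4 were tested and 2 fell, the factor EBF1 from 56.4, 51.1 and 56.7 CPM to 8.65, 12.68 and 9.93 CPM and the immunoglobulin gene IGKC from 26.3, 22.5 and 25 CPM to 1.44, 1.375 and 2.06 CPM, while CD79A and PAX5 were not called. Their summed level was 79.8 to 87.1 CPM in DMSO and 14.5 to 17.6 CPM with the combination, with MS4A1 and IGHM at 0 in all 6. Of 11 myeloid markers 3 were tested. The integrin chain ITGAM fell from 22.5, 24.3 and 28.8 CPM to 4.06, 5.27 and 4.66 CPM, while CSF1R rose from 7.25, 6.46 and 7.18 CPM to 15.1, 13.3 and 15 CPM and CD14 from 0.25, 0.202 and 0.263 CPM to 3.52, 2.52 and 2.37 CPM. The myeloid sum was 30.7 to 37.1 CPM in DMSO and 21.4 to 23.4 CPM with the combination, with S100A8 at 0 in all 6. Of 10 natural killer markers 2 were tested, NCR1 lower (-3.3) and NCAM1 higher (3.18), with sums of 1.84 to 3.84 and 1.68 to 3.28 CPM and KLRF1 at 0 in all 6. Of 7 endothelial markers 2 were tested, CLDN5 higher (1.29) and EGFL7 not called (0.56), with sums of 2.42 to 2.83 and 3.36 to 6.11 CPM and PECAM1 and TEK at 0 in all 6. The part of other cells in any result was not tested.

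Against each single drug, the combination still differed at many genes. Against romidepsin alone 4069 genes were higher (25.1%) and 4740 lower (29.2%), and against afatinib alone 5421 were higher (33.4%) and 5798 lower (35.8%). These comparisons share the combination libraries, so their counts are not independent. Of the G2 and M phase genes, 38 of 44 were below romidepsin and 37 of 44 below afatinib. Of the ATF4 list, 22 of 29 were above romidepsin and 3 below it, and of the sterol list 21 of 27 were above romidepsin and 17 above afatinib. Of 20 genes usually raised by deacetylase inhibitors, 8 were above romidepsin and 8 below it. Of 14 genes in the guanylate-binding protein list 10 were below romidepsin, of 20 immediate early genes 10 were below and 7 above, and of 19 replication-dependent histones 7 were below and 2 above. HLF, a circadian bZIP factor, was at 1.83, 3.13 and 2.98 CPM in DMSO, 92.9, 109 and 97 CPM with romidepsin and 14.3, 17.8 and 16 CPM with both (combination against romidepsin, log2 -2.63, edgeR adjusted p = 3.44e-26). EPAS1, the hypoxia factor HIF-2alpha, was at 4.92, 6.66 and 5.26 CPM in DMSO, 119, 126 and 119 CPM with romidepsin and 54.5, 56.1 and 54.2 CPM with both (log2 -1.15, edgeR adjusted p = 7.06e-18).

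**Figure D5:**
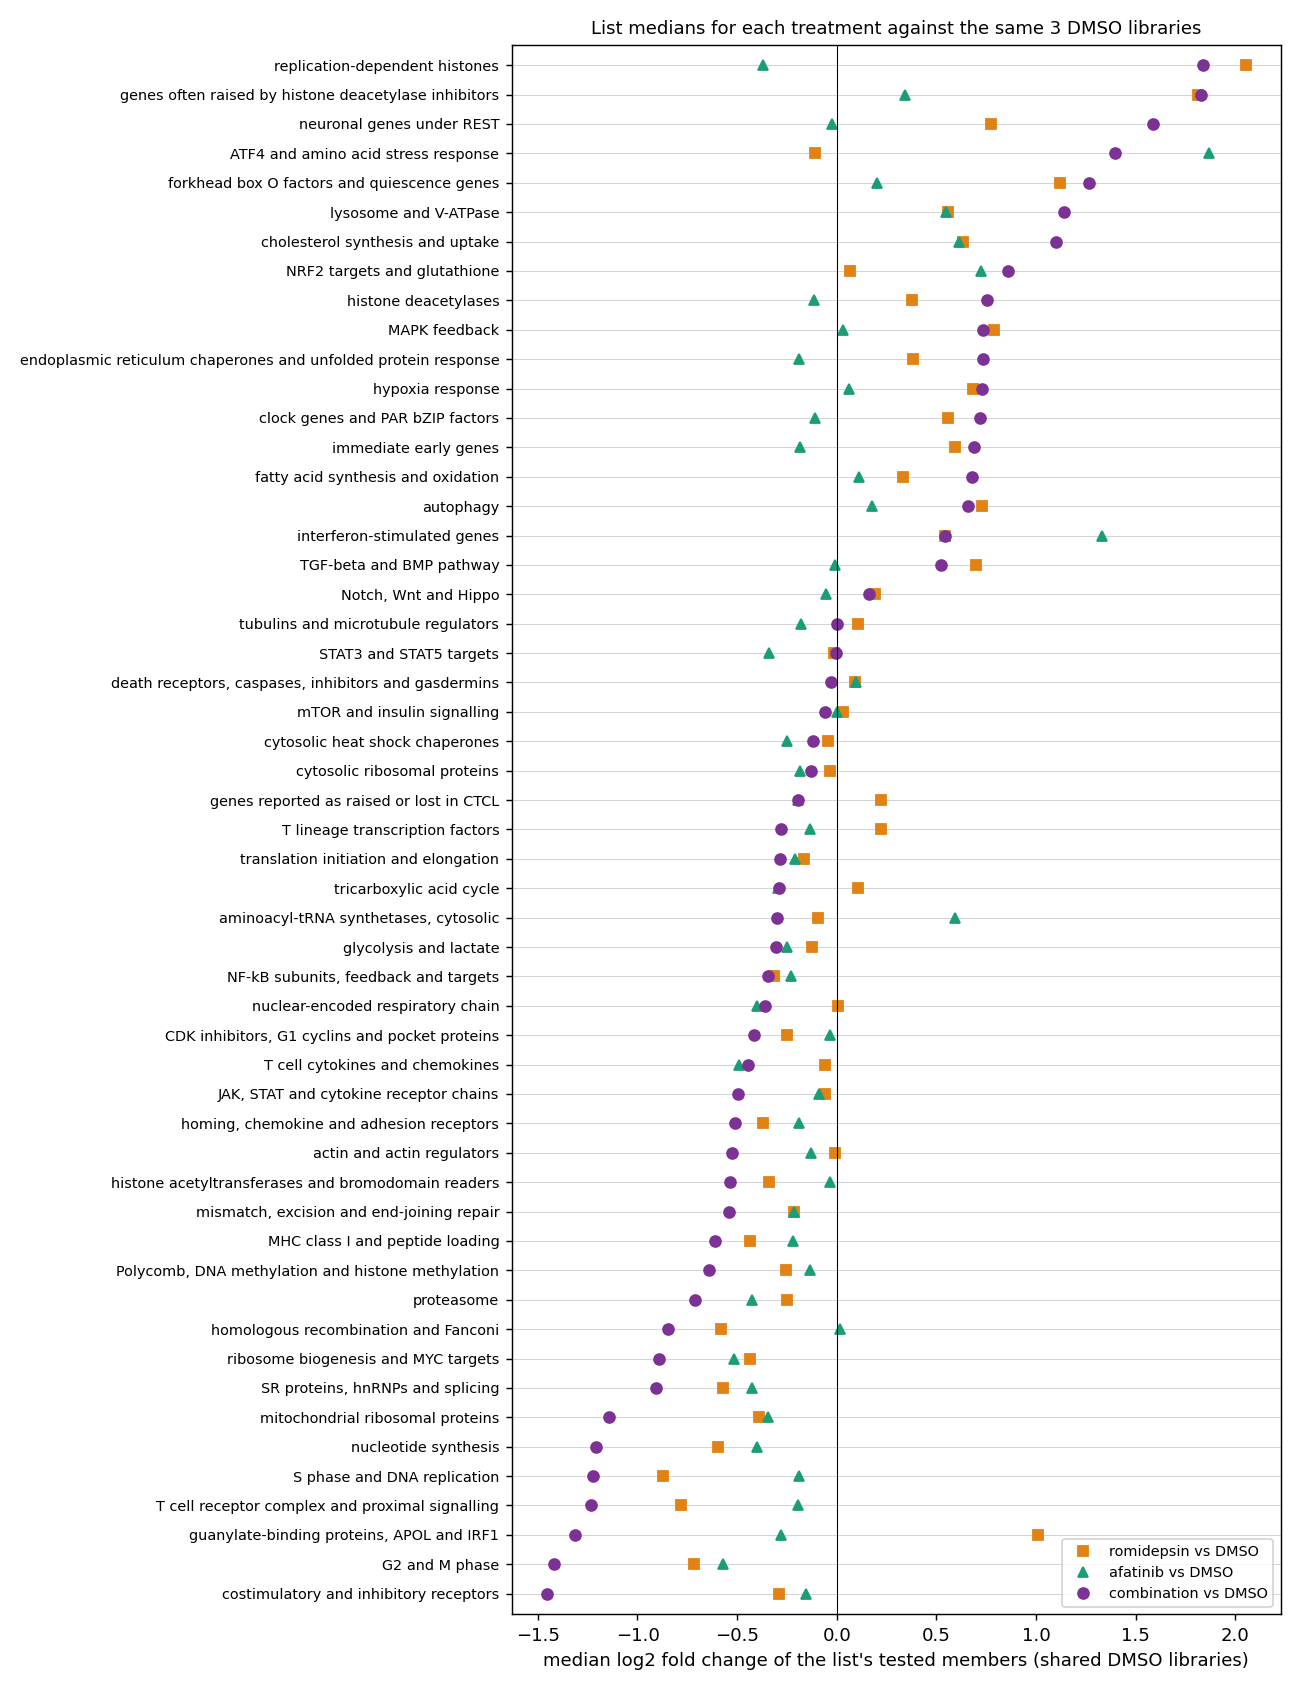
Median log2 fold change (horizontal axis) of 53 lists with at least 14 tested members for romidepsin (squares), afatinib (triangles) and the combination (circles), each against the same 3 DMSO libraries, which the 3 comparisons share. For the ATF4 list the medians are -0.11, 1.86 and 1.40, and for the guanylate-binding protein list the combination (-1.31) lies on the other side of 0 from romidepsin (1.01).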

How the data were processed

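RNA-seq libraries of MyLa cells were analysed from 1 deposited table of raw counts, with 3 libraries in each of 4 groups. Per the file headers, the authors counted read pairs per gene name with featureCounts 2.0.0 on GENCODE 31 for properly paired fragments, with no strand option set and no multimapping reads. The submitters' processing notes list STAR 2.7.9a, the build GRCh38.p12 and, as a further tool, DESeq2 1.38.1. The library kit is not given in the sources used here. Without strand, reads of a gene and of an overlapping or antisense gene cannot be told apart. A second deposited table of normalized counts was not used. Values in the text are TMM-scaled CPM computed from the deposited counts.

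Counts were tested with edgeR 4.0.16 in R 4.3.3 (filterByExpr, TMM, robust quasi-likelihood fit of 4 group means over 12 libraries), p-values adjusted by Benjamini and Hochberg's method across the 16208 genes tested, and calls made at 0.05. The common biological coefficient of variation was 6.13%. SE is the absolute log2 fold change divided by the square root of F. In a test on simulated data for this comparison over 15572 genes, the fit recovered 28% of 50 genes changed 1.25-fold, 68% at 1.5-fold, 88% at 2-fold and 94% at 4-fold, with 11 false calls. That test changed 50 genes at each fold, whereas 74.3% of the tested genes were called in the comparison itself. Recovery at such a large share of changed genes was not tested, and neither was the number of false calls. Gene types came from GENCODE 29.

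The comparison and the gene lists were chosen with earlier results of these data known. Named genes were those with the largest fold (at least 5 CPM on average, groups apart), those that gained or lost the most CPM, up to 4 members of each list with the largest called change among those with at least 5 CPM on average (or else its most abundant member), a list of drug targets and lineage genes, and the most abundant genes detected in only 1 of the combination and DMSO groups. Other list members were named after their values were seen. More promoter motifs were searched than are shown. The sterol regulatory element was found in 1 of 20 sterol genes (5%), SREBF2, which fell, and in 0.99% of all tested genes. For the antioxidant element the shares were 26.7% of its list and 15.4% of all. They were 76.9% and 6.57% for the interferon element and 25% and 4.63% for the heat shock element. Alternatives covered DESeq2 1.42.0 and its size factors, library-size scaling, other count filters, mitochondrial genes left out, a replicate block, and libraries left out. For the 2-fold sets they also covered a test against a 2-fold change. Some genes and 1 list are not reported here.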

Additional observations from a re-analysis of the deposited data

How the results depend on the processing

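Counts of higher and lower genes against DMSO and against each single drug stayed within 1.5 times the reported ones under every alternative run. Against DMSO, higher genes ran from 5369 without the 4 libraries with keratin reads to 6590 with library size as the only scaling, and lower genes from 4942 to 6139 over all settings. Leaving out 1 library gave 5847 to 6109 higher and 5586 to 5946 lower. Library-size scaling moved the median of all genes by 0.10 on the log2 scale, with 54.8% of calls higher against 50.1%. Between 81.8% and 99.5% of the calls were shared with each alternative, and 0 shared calls changed sign. Of 302 named genes, 4 changed call. EEF1A1, ERBB2 and HDAC2 lost theirs without the keratin-read libraries, and EGFL7 gained one under library-size scaling (log2 fold change 0.66) and without combination library 2 (0.70). Of 70 list medians, 6 changed sign under some setting, among them the T lineage transcription factors, at -0.28, 0.20 without the keratin-read libraries and 0.12 without DMSO library 1. Same-numbered combination and DMSO libraries did not deviate together (correlations -0.01, -0.09 and -0.02). The labels do not say if they were prepared as pairs, and a lack of correlation cannot settle that. With the replicate block 5998 genes were higher and 5970 lower against DMSO, 4013 and 4685 against romidepsin, and 5390 and 5758 against afatinib. At these depths, genes under the limit of detection in both groups could not be compared.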

Other observations

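Long noncoding RNAs were tested at 2374 loci, of which 39.2% were higher with the combination and 22.7% lower, with a median log2 fold change of 0.34. Protein-coding genes were more even, with 38.6% higher and 41.2% lower of 11902. Pseudogenes were higher for 22.2% and lower for 30.3% of 1447, and their reads can come from the genes they copy. On chromosome X 27.3% of 499 genes were higher and 41.5% lower. These are descriptions of the libraries, the low-count filter lets a gene through on the group where it is high, and differences between the classes were not tested.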
